A study of Mus musculus with 4 samples.

Results

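The Cyp4f and Cyp4v genes encode cytochrome P450 enzymes of family 4, which add a hydroxyl group at or near the far end of long-chain fatty acids and eicosanoids. They were chosen by gene symbol, from a list of 7 names, and 6 of the 7 were found among the 21827 gene entries of the table. These are Cyp4f13, Cyp4f14, Cyp4f15, Cyp4f16, Cyp4f17 and Cyp4f18. Cyp4v3 matched no entry by symbol, by older name or by RefSeq accession and was not analysed here, so the values below describe Cyp4f genes alone.

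The samples were livers of untreated 8-week-old mice of the outbred CD-1 stock, in 2 groups, male liver and female liver, which differed in sex alone as far as the labels say. For each sex, 12 livers had been pooled 6 at a time, and the resulting 2 pools were sequenced after poly-A enrichment with a preparation that keeps strand. The table holds a single value for each gene in each sex, so that the spread between pools cannot be given. The levels, ratios, folds and adjusted p of each gene come from the authors' deposited table unless a value is named as a counting interval or as a plain difference of levels.

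Levels are log2 RPKM, that is, reads per kilobase of transcript scaled to library size, on a log2 scale. The depth implied by the lowest values in the table was 11241814 reads for male and 14719686 for female liver. Implied reads below are computed from the level, this depth and the transcript length. All 8 hepatocyte markers examined were abundant, at log2 RPKM values between 7.29 and 14.83 in male and between 7.38 and 15.52 in female liver, which matches the tissue label. In bulk tissue, fewer cells of a type and less RNA per cell cannot be told apart. Of 13763 genes with a ratio between the sexes, the compared genes, 2399 (17.4%) had an adjusted p under 0.05 in the authors' deposited table. Called genes with the higher level in male liver made up 7.21% of the compared genes, and those with the higher level in female liver 10.2%.

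Hydroxylation by family 4 enzymes starts the omega-oxidation of fatty acids and limits the activity of lipid mediators such as leukotriene B4, a signal that attracts neutrophils. Mouse Cyp4f14 is a leukotriene B4 hydroxylase of liver that also attacks the side chain of vitamin E. Mouse Cyp4f18 hydroxylates leukotriene B4 in neutrophils. The related human enzyme CYP4F2 breaks down vitamins E and K. In many family 4 enzymes, a glutamate in the long I helix binds the heme covalently.

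The stretch around that helix position is shown because it separates the members into 2 kinds. Each line gives 24 bases of the coding sequence, 5′ to 3′, from the GENCODE M21 transcript of the gene (GRCm38 assembly), and the capitals mark the codon at the heme-linking position.
Cyp4f14: ttcatgtttGAGggccatgacacg
Cyp4f15: ttcatgtttGAGggccatgacacc
Cyp4f13: ttcatgtttGGAggccatgacacc
Cyp4f17: ttcatgtttGGAggccatgacacc
Cyp4f16: tttatgtttGGAggccatgacacc
Cyp4f18: ttcatgtttGGAggccatgacacc
GAG encodes glutamate, found in Cyp4f14 (codon 328) and Cyp4f15 (codon 333). GGA encodes glycine, found in the other 4 genes, at codon 327 in Cyp4f13 and at codon 328 in Cyp4f16, Cyp4f17 and Cyp4f18. The genes with the glutamate codon were those with the highest levels in both sexes, as given below; with 6 genes this is a description. Over the whole coding sequence, the 15 pairs of members were between 76.3% and 84.3% identical. The closest pairs were Cyp4f16 with Cyp4f17 (84.3%) and Cyp4f13 with Cyp4f17 (84.2%), and the glutamate-coding pair Cyp4f14 and Cyp4f15 was 82.0% identical.

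The level of the 6 genes followed 1 order in both sexes, from Cyp4f14 at the top through Cyp4f15, Cyp4f13, Cyp4f17 and Cyp4f16 to Cyp4f18. Cyp4f14 had a log2 RPKM of 7.08 in male and 7.37 in female liver. Cyp4f15 had 6.22 in male and 6.23 in female liver, and Cyp4f13 had 5.86 in male and 5.27 in female liver. These 3 genes lay above at least 89.3% of the compared genes in either sex and were the abundant members of the family. Cyp4f17 was intermediate, with a log2 RPKM of 3.63 in male and 3.15 in female liver. Cyp4f16 lay near the authors' limit for a liver-expressed gene (log2 RPKM of 1), with 0.47 in male and 1.02 in female liver. Cyp4f18 had -1.45 in male and -1.33 in female liver, below that limit in both sexes. From Cyp4f14 to Cyp4f18 the levels spanned 8.53 log2 units in male and 8.69 in female liver. No 2 neighbours in this order had overlapping 95% exact Poisson intervals of counting error in either sex; the spread between pools is not known. These intervals ran from 54.5 to 61.3 RPKM in male and from 36.2 to 41.0 RPKM in female liver for Cyp4f13, and from 0.12 to 0.68 RPKM in male and from 0.16 to 0.68 RPKM in female liver for Cyp4f18.

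**Figure D1:**
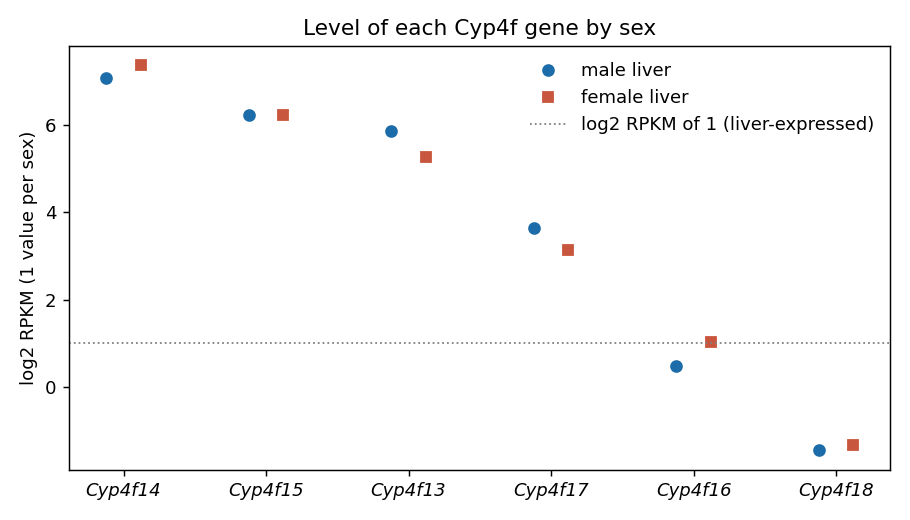
Level of each Cyp4f gene as log2 RPKM, with 1 value for male liver (circles) and 1 for female liver (squares), genes ordered by mean level; no error between pools can be drawn. The order of genes is shared by the sexes, and Cyp4f13 shows a male value of 5.86 above the female value of 5.27.

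Between the sexes, Cyp4f13 was the member that passed the test. In the authors' deposited table its level in male liver was 1.43 times that in female liver (log2 ratio 0.515, adjusted p = 0.00991). The table places it in the authors' male class, whose limit is an adjusted p of 0.01, which 10.2% of the compared genes pass in either direction; its p lies just inside that limit. Its levels correspond to 1139 implied reads in male and 995 in female liver. The plain ratio of the levels was 1.499, with a 95% exact counting interval from 1.38 to 1.63. Of all compared genes, 28.2% had a log2 ratio at least as large in either direction. The gene (NM_130882) spans 17, 33061633 to 33084306, on the minus strand (mm9).

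The other 5 members did not pass the authors' adjusted p of 0.05, and they pointed in both directions. Cyp4f17 had a log2 ratio of 0.43 toward male liver (1.34-fold, adjusted p = 0.076), close to the size of that of Cyp4f13. Its implied reads were 235 in male and 220 in female liver, and the counting interval of the plain ratio ran from 1.16 to 1.69. Cyp4f14 had a log2 ratio of -0.33, with the higher level in female liver (1.26-fold, adjusted p = 0.0797). As the most deeply covered member, with about 3082 implied reads in male and 4945 in female liver, it had a counting interval of the plain male over female ratio from 0.78 to 0.854. For Cyp4f14 and Cyp4f17 counting error alone thus did not span a ratio of 1, while the authors' adjusted p was not under 0.05.

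Cyp4f15 had near-equal levels in the sexes, with a log2 ratio of -0.05 (adjusted p = 0.782). The counting interval of its plain ratio ran from 0.939 to 1.06. Cyp4f16 had the largest ratio toward female liver, -0.60 on the log2 scale (1.52-fold, adjusted p = 0.112). It rests on about 34 implied reads in male and 66 in female liver, and the counting interval of the male over female ratio, 0.432 to 1.04, includes 1. Cyp4f18 had 6 implied reads in male and 9 in female liver (log2 ratio -0.22, adjusted p = 1.0), and the counting interval of its ratio ran from 0.256 to 2.75. Counting error alone spans that range, and no limit of detection was computed.

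In all, 1 of 6 members was called, in the male direction, and none in the female direction, beside 17.4% of compared genes called in either direction. Of the ratios, 2 were above and 4 below 0. The median log2 ratio of the members was -0.14, beside -0.02 for all compared genes, and their median size without sign was 0.38, beside 0.27 for all compared genes. The 76 compared genes whose symbol begins with Cyp and a digit include the 6 members. Of these 76 genes, 40 (52.6%) were called, and the median size over the 76 was 0.84. No test of the difference between these groups of genes was made.

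**Figure D2:**
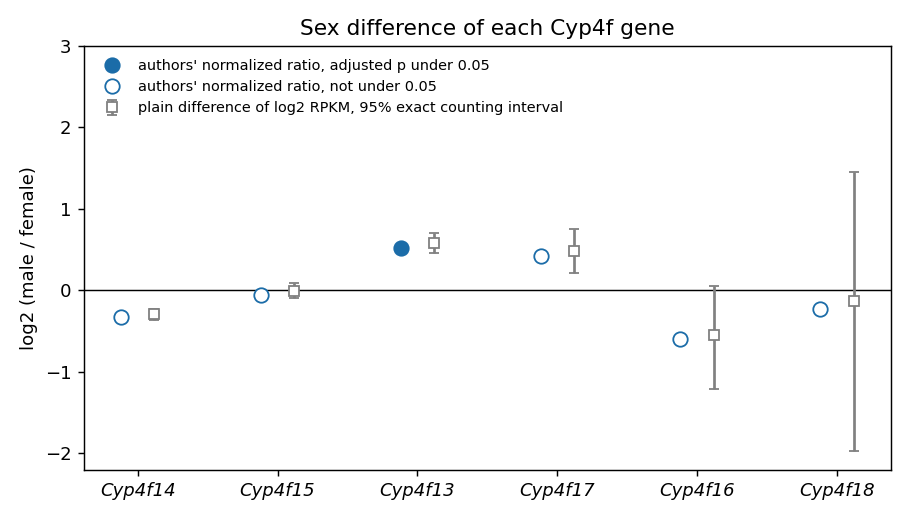
Sex difference of each Cyp4f gene on the log2 scale, male over female: circles are the authors' normalized ratios (filled where their adjusted p is under 0.05), and squares are plain differences of log2 RPKM with 95% exact counting intervals. Cyp4f13 alone is filled, at 0.515, and the interval widens to the low-level genes Cyp4f16 and Cyp4f18.

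The summed level of the 6 genes was close in the sexes, while the shares of single genes lay further apart. The sum was 282 RPKM in male and 290 RPKM in female liver, a male over female ratio of 0.971. Cyp4f14 made up 47.9% of it in male and 57.0% in female liver. Cyp4f13 made up 20.6% in male and 13.3% in female liver. Cyp4f15 held a near-equal share, 26.5% in male and 25.8% in female liver. Cyp4f16 held 0.493% in male and 0.70% in female liver. The level of Cyp4f14 was 2.33 times that of Cyp4f13 in male liver and 4.28 times in female liver, both per transcript length. This shift joins 1 called and 1 uncalled gene and was not tested over pools.

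**Figure D3:**
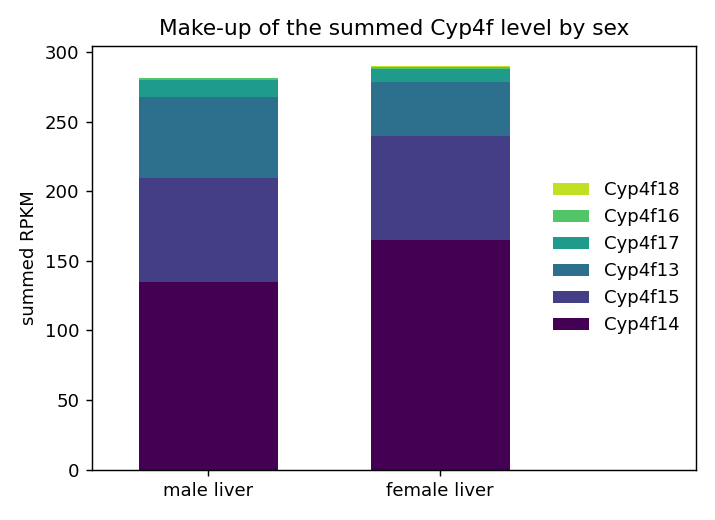
Summed RPKM of the 6 Cyp4f genes in male liver and in female liver, stacked by gene from the highest (Cyp4f14, bottom) to the lowest (Cyp4f18, top). The columns reach 282 RPKM in male and 290 RPKM in female liver, with a larger Cyp4f13 part in male and a larger Cyp4f14 part in female liver.

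Among P450 genes outside the family, the nearest in level over both sexes were Cyp3a13 for Cyp4f13 (a distance of 0.25 log2 units) and Cyp2a12 for Cyp4f14 (0.21). Cyp2d37-ps was nearest to Cyp4f15 (0.37), Cyp2r1 to Cyp4f17 (0.37) and Cyp4a31 to Cyp4f16 (0.46). The likeness is the distance over 2 values, 1 per sex, and is only a description. Cyp3a13 lay at 5.74 in male and 5.496 in female liver (adjusted p = 0.163), and Cyp2a12 at 7.21 in both.

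Of the 6 members, 5 lie in 1 cluster on chromosome 17 and Cyp4f18 lies on chromosome 8 (74512381 to 74533525, mm9). From Cyp4f17 to Cyp4f13 the cluster spans 441 kb, 32643407 to 33084306 (mm9), and holds 11 listed genes. Beside the 5 members these are Cyp4f40, Gm9705 (now named Cyp4f37) and 4 zinc finger genes. Calls were made for 2 of the 11, beside 17.4% of all compared genes, so the count is only a description. Cyp4f13 and Cyp4f14 lie next to each other on the minus strand, 7.61 kb apart, and their log2 ratios of 0.515 and -0.33 point in opposite directions. Cyp4f17 and Cyp4f16, which are also neighbours, had ratios of 0.43 and -0.60.

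Outside the family, the called genes next to members were zinc finger genes with higher levels in male liver. Zfp472, on the far side of Cyp4f13, was 1.65-fold higher in male liver (adjusted p = 0.022), at 1.605 in male and 0.872 in female liver on the log2 RPKM scale. Zfp871, next to Cyp4f15, was 1.51-fold higher (adjusted p = 0.00353), at 3.76 in male and 3.13 in female liver. Between Zfp871 and Cyp4f13 lie 4 listed genes, none of them called: Zfp811 had a log2 ratio of 0.57 (adjusted p = 0.78), Zfp799 one of -0.16 (adjusted p = 0.712), Zfp870 one of -0.36 (adjusted p = 0.255) and Cyp4f14 one of -0.33. The family members Cyp4f39 and Cyp4f40 were at log2 RPKM values below -2 in both sexes and were not called (adjusted p = 0.628 and 1.0), and Cyp4f37 had 1 implied read in each sex. In mouse, Cyp4f39 corresponds to human CYP4F22, an enzyme of skin barrier lipids.

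**Figure D4:**
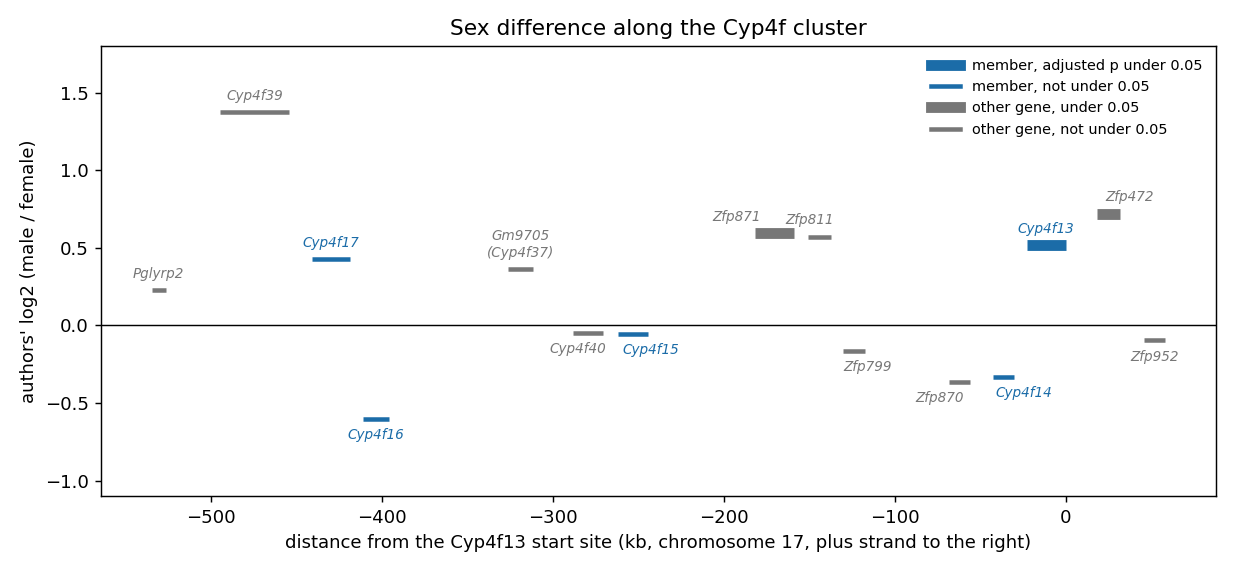
Authors' log2 ratio, male over female, of each compared gene along the chromosome 17 cluster against distance from the Cyp4f13 start site in kb; blue bars are members, grey bars other genes, and thick bars have an adjusted p under 0.05. Cyp4f13 (0.515) and its neighbour Cyp4f14 (-0.33) lie on opposite sides of 0.

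The start regions of the members share a short stretch despite their different levels, and it is shown for that reason. Promoter windows of 300 bases from RefSeq (GRCm38.p6) were matched for 5 of the 6 members; Cyp4f17 had no entry. All 5 hold GATTGG on the strand of the gene, and it includes the reverse complement of the CCAAT box. The letters were picked after comparing these windows. Over both strands, 16.1% of all 32851 windows hold them. A match is a description of letters, not a binding site. The 42 bases around each match follow, with GATTGG in capitals.
Cyp4f13, chr17:32947415-32947456, minus strand: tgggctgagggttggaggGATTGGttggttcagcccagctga
Cyp4f14, chr17:32917384-32917425, minus strand: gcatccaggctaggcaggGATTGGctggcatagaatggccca
Cyp4f15, chr17:32685562-32685603, plus strand: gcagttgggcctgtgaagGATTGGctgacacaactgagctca
Cyp4f16, chr17:32536515-32536556, plus strand: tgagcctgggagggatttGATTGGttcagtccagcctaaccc
Cyp4f18, chr8:72009652-72009693, minus strand: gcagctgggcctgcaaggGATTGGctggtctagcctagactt
The capitals begin at -77 in Cyp4f13, -51 in Cyp4f14 (the most upstream of its 4 windows), -79 in Cyp4f15, -24 in Cyp4f16 and -49 in Cyp4f18, counted from the gene start. Since the letters were picked from these windows, their presence in Cyp4f13, the called gene, and in uncalled members was set by that choice. Whether they bear on the sex difference was not tested.

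Where transcripts of different genes hold the same stretch, reads can be split between them. Matches of the reverse complement were counted too, and matches on the same strand were not counted apart. Of all 36-base stretches in the transcript of each gene, 6.46% of those of Cyp4f13, 6.50% of those of Cyp4f14 and 5.81% of those of Cyp4f15 also occur in a transcript of another gene. The share was 11.6% for Cyp4f17 and 8.94% for Cyp4f18, in the last case mostly with the neighbouring zinc finger gene Zfp961 (7.02%). It was 34.3% for Cyp4f16, mostly with Cyp4f37 (30.5%), so that the value of Cyp4f16 is uncertain. The sources used here do not say how reads with several matches were handled.

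Other Cyp4 genes of the table ranged more widely. Of 10 compared genes, 3 were called with the higher level in male liver and 3 with the higher level in female liver. Over all compared genes, 17.4% were called in either direction. The list median was 0.43 on the log2 scale, also with Cyp4a12b at the bound given below. The fatty acid hydroxylase gene Cyp4a12a lay at a log2 RPKM of 7.20 in male and 0.01 in female liver (log2 ratio 7.24, adjusted p = 1.01e-144). Cyp4a12b had 275 implied reads in male and none in female liver; with 3 reads set as the floor for the whole sex, its level in male liver was at least 120 times higher. Cyp4a14, Cyp4a10 and Cyp4a31 had log2 ratios of -1.94, -1.68 and -1.14, all called with the higher level in female liver.

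Among genes that make or receive leukotrienes, a class of substrates of this family, 12 of 15 were compared and 1 was called, beside 17.4% of all compared genes. Mgst3, a microsomal glutathione transferase, lay at 1.97 in male and 3.50 in female liver (log2 ratio -1.65, adjusted p = 2e-06). Lta4h, the enzyme that makes leukotriene B4, had a log2 RPKM of 3.69 in male and 3.52 in female liver (adjusted p = 0.399). Alox5, which starts leukotriene synthesis, had 0 implied reads in male and 1 in female liver, and the table gives no ratio for it.

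Prostanoid genes went both ways. Of 11 compared genes, 3 were called as male-higher and 3 as female-higher, beside 17.4% of all compared genes called in either direction. The prostaglandin E synthase genes Ptges (4.15-fold, adjusted p = 0.00293) and Ptges2 (1.74-fold, adjusted p = 0.00122) were higher in male liver. Another prostaglandin E synthase gene, Ptges3, was not called, with a log2 ratio of -0.43 toward female liver (adjusted p = 0.07). Ptges was low, at -0.23 in male and -2.29 in female liver, with 34 implied reads in male and 10 in female liver. Ptgds, a prostaglandin D synthase (1.79-fold, adjusted p = 0.00103), and Tbxas1, thromboxane synthase (1.67-fold, adjusted p = 0.036), were lower in male liver. Among 6 compared genes of other lipoxygenases and arachidonate release, 1 was called, beside 17.4% of all compared genes. It was the phospholipase gene Pla2g6, listed under another symbol, which was 1.76-fold higher in male liver (adjusted p = 0.000163). The other 6 genes of that list had no implied reads in either sex, and Pla2g12b, the most abundant, had an adjusted p of 0.259.

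Of 5 genes for electron donors of the P450 enzymes, 0 were called at an adjusted p under 0.05, beside 17.4% of all compared genes, which says little with so few genes. The table holds no unadjusted p. The smallest adjusted p was that of Cyb5r3, a cytochrome b5 reductase (0.0552), with levels of 7.75 in male and 7.31 in female liver. Cyb5, a cytochrome b5, was the most abundant at 9.97 in male and 10.08 in female liver (adjusted p = 0.399).

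Enzymes that act after the hydroxylase, which turn the alcohol into an acid and shorten it in peroxisomes, had calls in both directions. Of 14 compared genes, 5 were called as male-higher and 1 as female-higher, beside 17.4% of all compared genes called in either direction. Adh1, an alcohol dehydrogenase, was 1.59-fold lower in male liver, at 9.59 in male and 10.23 in female liver (adjusted p = 0.000373). Adh4 was 1.45-fold higher in male liver (adjusted p = 0.00505). Abcd3, a peroxisomal importer (1.37-fold, adjusted p = 0.016), and Acaa1b, a peroxisomal thiolase (1.31-fold, adjusted p = 0.0431), were higher in male liver. The list median was 0.00. Of 7 genes of vitamin E and K handling, 2 were called, beside 17.4% of all compared genes, and both were lower in male liver. These were Nqo1, a quinone reductase (3.65-fold, adjusted p = 2.12e-10), and Ttpa, the vitamin E transfer protein (1.30-fold, adjusted p = 0.0415).

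**Figure D5:**
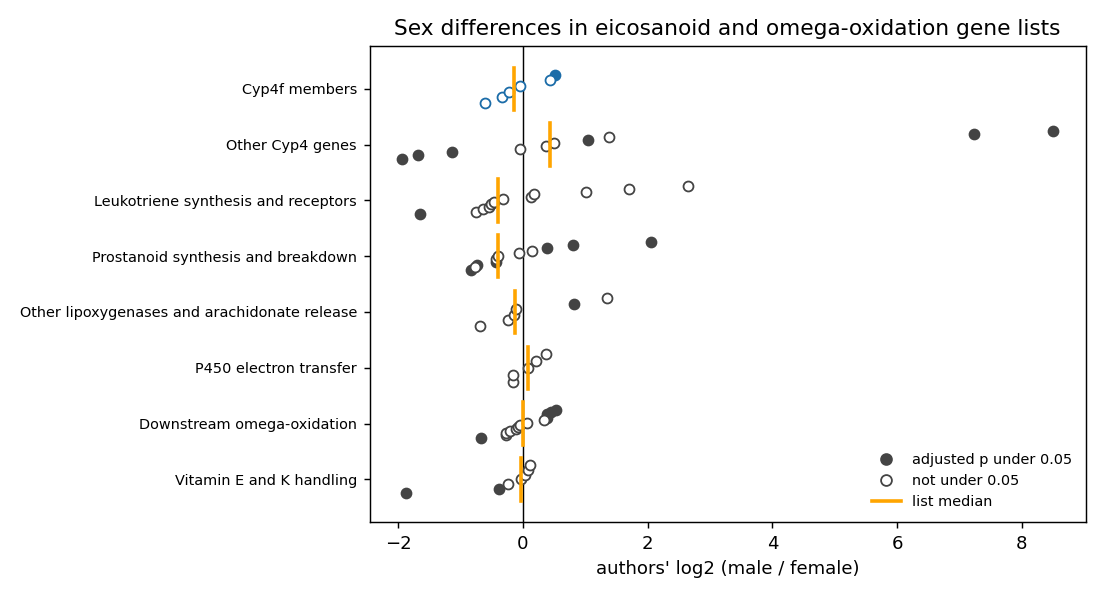
Authors' log2 ratio, male over female, of each compared gene in the Cyp4f family and in 7 lists of related genes; filled points have an adjusted p under 0.05 and orange bars are list medians. The Cyp4f members lie between -0.60 and 0.515, and the rightmost point is Cyp4a12b, which had no implied reads in female liver, so its position is not a measured fold.

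Markers of other liver cells were examined beside the members because Cyp4f18 is known from neutrophils. Of 9 neutrophil markers found, 7 were compared and 1 of these was called, beside 17.4% of all compared genes. This was Csf3r, with a log2 RPKM of -1.75 in male and -0.11 in female liver. The summed level of the 9 was 7.34 RPKM in male and 10.5 RPKM in female liver, most of it from S100a8 and S100a9, which were not called (adjusted p = 0.403 and 0.184). Other markers pointed the other way without a call: Cxcr2 had a log2 ratio of 1.21 (adjusted p = 0.0632), Ngp one of 1.98 (adjusted p = 0.117) and Ltf one of 0.67 (adjusted p = 0.237). Mmp8 had 5 implied reads in male and 0 in female liver and was not compared. Its ratio is not given, and its deposited adjusted p was 0.017. Camp had no implied reads in either sex. All 8 Kupffer cell markers found had log2 ratios below 0, from -0.15 (Cd5l) to -1.68 (Marco), and 4 of them were called: Marco, Timd4, Vsig4 and Clec4f. Their summed level was 152 RPKM in male and 191 RPKM in female liver, and Clec4f, a defining marker, lay at 5.73 in male and 6.11 in female liver. Of the 8 hepatocyte markers, 3 were called. Apoa1 was higher in male liver (adjusted p = 0.00214), and Alb and Apoc3 were higher in female liver (adjusted p = 0.000181 and 0.0124). Of the remaining marker lists, 3 of 5 stellate cell, 1 of 5 endothelial and 1 of 4 cholangiocyte genes were called. Each of these called genes had the higher level in female liver. The uncalled genes of these lists went both ways. Krt19 (log2 ratio 1.34), Des (0.45), Stab1 (0.12) and Kdr (0.018) lay above 0. Reln, Stab2, Lyve1, Krt7 and Epcam lay below 0. Of the B and T cell genes, 0 of 6 had an adjusted p under 0.05. All these counts stand beside 17.4% of all compared genes called in either direction. The part of these cells in the value of any Cyp4f gene was not tested.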

How the data were processed

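Per the labels, poly-A RNA of 4 pooled liver libraries was sequenced. Per the submitters' processing notes, Bowtie and edgeR were the tools and mm9 the build; roles, versions and read assignment are not given in the sources used here. Per the file headers, the deposited table holds the authors' log2 RPKM per sex, normalized log2 ratio of male over female, linear ratio, signed fold change (a score), adjusted p-value and sex class. It separates no pools, so the planned count test could not be run; calls use the authors' adjusted p, under 0.05. The members and lists were chosen with earlier results of these data known. The sources used here do not say how that test treated the 2 pools of a sex.

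Genes at the floor in both sexes (6590), above it in 1 sex with no ratio given (1460) or without level (14) were not compared. For 6604 entries at the floor or without level, the deposited adjusted p was 0.026, which is under the limit for a call. Only compared genes were counted as called. Why those entries carry this value, and whether it bears on the adjusted p of compared genes, was not tested. Taking the value added at the floor as 1 read, depth was computed from 1050 olfactory receptor genes, and implied reads from transcript lengths of GENCODE M21 (another build, used for lengths and sequence). For Cyp4f14, Cyp4f15 and Cyp4f16, whose accessions have no match there, the shortest RefSeq-linked transcript was used. Intervals (95%, exact Clopper-Pearson for ratios and exact Poisson for levels) cover counting error only and use implied depth, not the authors' normalization. Starts are 1-based. All members were named; of each list, up to 4 called genes by size (5 for other Cyp4 genes), or the 2 most abundant genes if a list had under 2 calls. Of the cell marker lists, defining genes were named for their levels. Alox5, Ptges3, the hepatocyte markers, the other neutrophil markers, the Kupffer genes beside Clec4f and the Zfp genes were named after their values were seen. The same holds for the uncalled stellate cell, endothelial and cholangiocyte genes. Python 3.11.15, pandas 2.3.3 and SciPy 1.17.1 were used, and the interval code was tested on simulated data. The alternatives were a limit of 0.01, plain differences of levels, centring, subtraction of the floor value and a minimum log2 RPKM of 1.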

Additional observations from a re-analysis of the deposited data

How the results depend on the processing

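Cyp4f13 remained called at the stricter limit of 0.01. The other 4 alternatives use the authors' adjusted p unchanged, so they could not change the call. Its direction held under the 3 that rescale the ratio, and the filter on low levels does not touch it. The median log2 ratio of the members, -0.138, was -0.0635 by the plain difference of levels, -0.114 after centring on the compared genes, -0.0988 with the floor value subtracted and -0.053 when members under a log2 RPKM of 1 in both sexes were left out. It stayed below 0 and rests on 6 or 5 genes. No member and no named pathway gene changed direction. At an adjusted p under 0.01, Tbxas1, Abcd3, Acaa1b and Ttpa were no longer called. Leaving out a pool could not be run, since the table does not separate the pools. No paired analysis was possible because the columns carry no replicate numbers. Depth limits Cyp4f18 and Cyp4f16, whose counting intervals are the widest of the members.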
